A study of Mus musculus with 45 samples.

Results

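The libraries described here are those of day 3 of differentiation of male E14tg2a embryonic stem cells (ESCs), 3 from cells maintained in 2iL and 3 from cells maintained in SL, which are 6 of the 45 libraries of the series. They were chosen by their titles, with no measured value, and they were paired by the differentiation course. E14tg2a is a mouse ESC line of 129/Ola background, which the study counts among its wild type lines. 2iL is a serum-free N2B27 medium with the Gsk3 inhibitor CHIR99021, the Mek inhibitor PD0325901 and LIF, and SL is a medium with fetal bovine serum and LIF. From each medium, cells were differentiated as EBs in suspension culture with serum and no LIF (EB course), as an adherent monolayer in N2B27 with Fgf2 and ActivinA (FA course, EpiSC in the sample labels), or as an adherent monolayer in N2B27 alone (serum-free course, neural in the labels). At day 3 the cells of both origins had thus been in the same differentiation medium since day 0, and the comparison asks which transcripts still differed by the medium in which the ESCs had been maintained. All libraries come from 1 cell line, and each medium and course has 1 library at day 3. The cells had been passaged only a few times in 2iL before differentiation, by the description of the cultures. The time courses are described as independent, without saying whether this means separate starting cultures for the 3 courses of a medium or separation from other experiments, so p-values measure the spread between courses, and the medium and the individual starting culture cannot be told apart.

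Dual inhibition of Mek and Gsk3 holds ESCs in a naive state and is known to be accompanied by low DNA methylation across the genome, whereas ESCs in serum carry more methylation and are a more mixed population that includes cells primed for other lineages. When the inhibitors are withdrawn, methylation is restored while the naive factors are shut off and the formative and lineage genes come on. Transcripts that depend on DNA methylation include imprinted genes, which are expressed from the maternal or the paternal copy alone, many germline genes with CpG-rich promoters, and clustered X-linked gene families. DNA methylation itself was not measured in these libraries.

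Total RNA depleted of ribosomal RNA was sequenced with strand information, and the values are read counts per gene. The 6 libraries held between 15774405 and 33951812 counts, and the EB library from 2iL was the deepest. Levels are given as CPM, counts scaled to library size by TMM factors, and 3 counts corresponded to between 0.0884 and 0.190 CPM. No library was a copy of another, since every pair differed by at least 39.2 times counting noise. The naive, formative and lineage markers of the cultures are given below with the gene groups they belong to.

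Of 35372 genes counted, 14396 passed the filter on low counts, and 50 of them differed between the origins (0.347% of the genes tested) when the course was a block in edgeR's quasi-likelihood test and adjusted p-values under 0.05 were called. Cells from 2iL had higher levels of 32 genes (0.222%) and lower levels of 18 (0.125%), and the median log2 fold change of all genes tested was -0.004. All 50 genes had the same sign in all 3 courses, against 40.3% of all genes tested, and 48 differed by at least 1.5-fold in each course. The 2 exceptions were Meox1 and Sox1, whose EB libraries differed by 0.36 and 0.36 on the log2 scale with a pseudocount of 0.5 CPM. In 39 of the 50 genes the libraries from 2iL and those from SL did not overlap. Of these 39, 26 were higher and 13 lower, and over all genes tested every library from 2iL lay above every library from SL for 5.27% and below for 4.58%. The signs in all 3 courses were positive for 20.6% and negative for 19.7% of the genes tested. At an unadjusted p under 0.05 there were 2221 genes, of which 1120 were higher and 1101 lower (7.78% and 7.65% of those tested). With 6 libraries and 4 coefficients the fit had 2 residual degrees of freedom, and the number of calls moved with the libraries used. It was 716 without the EB course (4.97%), 21 without the FA course (0.143%) and 2 without the serum-free course (0.0137%). DESeq2's Wald test gave 482 (3.35%), 226 of them higher. DESeq2 size factors in edgeR gave 53 (0.368%) and no filter on low counts 230 (1.08%), and 0 remained without the block.

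**Figure D1:**
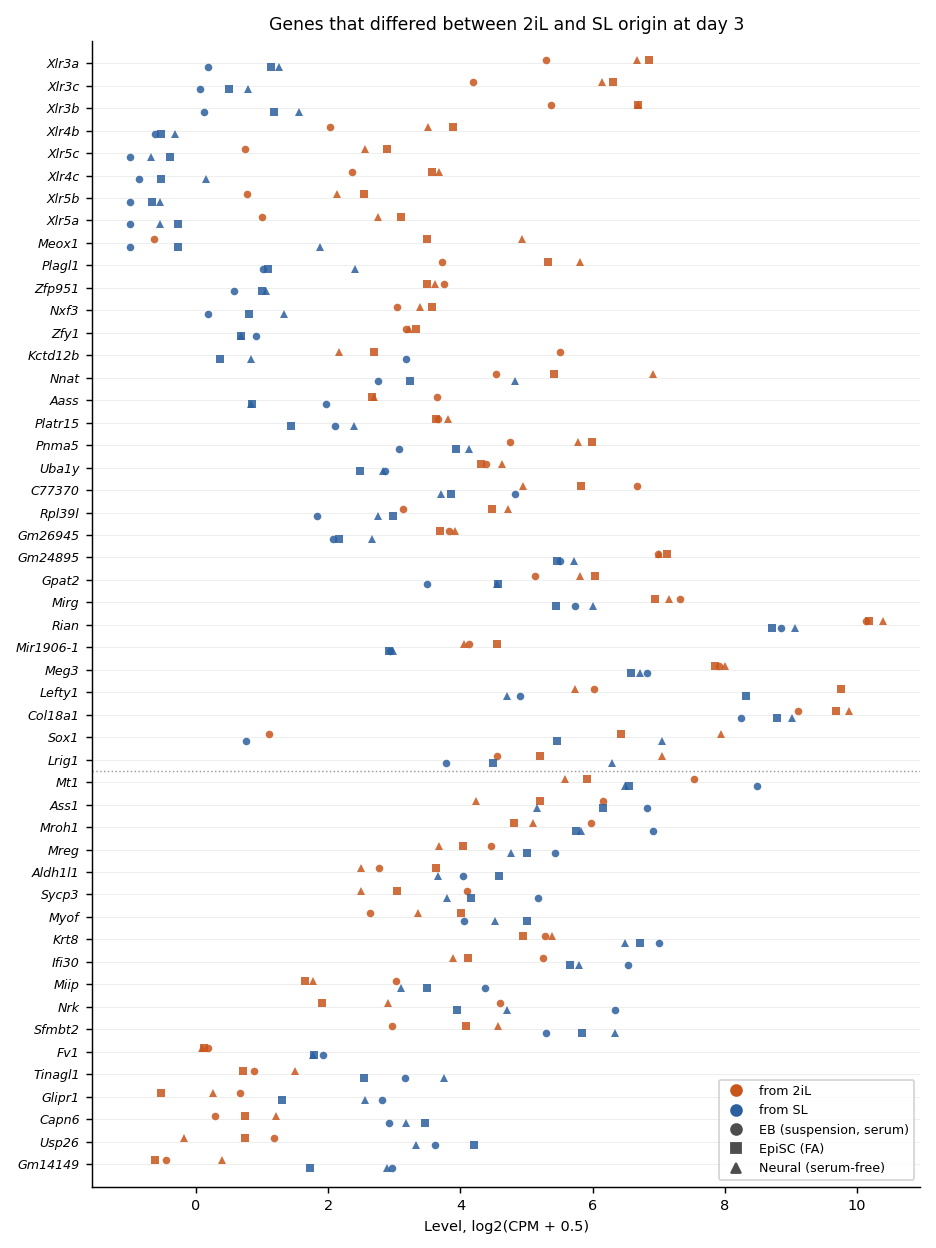
Level of each of the 50 genes past the threshold in the 6 day 3 libraries, on a log2(CPM + 0.5) axis. Genes are in order of their fitted log2 fold change, 2iL minus SL, with the 32 higher ones above the dotted line and the 18 lower ones below it, and colour gives the origin and shape the course. The Xlr3 genes at the top show the widest gap between origins, and for genes such as Lefty1 or Sox1 the courses lie farther apart than the origins.

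The promoters of 3 members of the Xlr3 family are shown because this family differed most between the origins. Xlr genes (X-linked lymphocyte regulated) encode nuclear proteins related to a synaptonemal complex protein, and they form a cluster of near-identical copies. The 250 bases before the RefSeq start of each gene, on GRCm38.p6 and in the direction of transcription, have CG dinucleotides, the sites of DNA methylation, in capitals. Xlr3a is at chrX:73097096-73097345 on the negative strand, Xlr3b at chrX:73191929-73192178 on the positive strand and Xlr3c at chrX:73265391-73265640 on the negative strand.
Xlr3a: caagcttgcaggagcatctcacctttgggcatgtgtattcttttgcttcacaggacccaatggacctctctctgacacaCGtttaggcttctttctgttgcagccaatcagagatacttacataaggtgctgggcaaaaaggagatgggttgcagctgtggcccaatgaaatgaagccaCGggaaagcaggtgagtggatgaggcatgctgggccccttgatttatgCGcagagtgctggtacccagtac
Xlr3b: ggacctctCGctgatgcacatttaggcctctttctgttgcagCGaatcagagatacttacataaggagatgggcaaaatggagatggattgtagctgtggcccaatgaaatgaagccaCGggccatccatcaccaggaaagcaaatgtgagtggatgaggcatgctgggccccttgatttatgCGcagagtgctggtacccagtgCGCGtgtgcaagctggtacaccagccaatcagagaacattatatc
Xlr3c: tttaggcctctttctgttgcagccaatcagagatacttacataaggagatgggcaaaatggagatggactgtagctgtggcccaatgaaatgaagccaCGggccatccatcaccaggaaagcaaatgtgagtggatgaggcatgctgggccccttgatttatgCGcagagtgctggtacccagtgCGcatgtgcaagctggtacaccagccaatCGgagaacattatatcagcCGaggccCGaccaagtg
These windows held 3, 6 and 6 CG dinucleotides, and the median of all 27025 genes with a promoter entry was 6.0. Xlr3b and Xlr3c shared an identical run of 119 bases, and Xlr3a shared one of 58 bases with each of them. The transcripts of the copies were not compared here. Because Xlr copies are known to be near-identical, how the counting divided reads between them is uncertain, and the family sums are given first.

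The Xlr3 family (Xlr3a, Xlr3b and Xlr3c summed) was at 97.2, 296 and 274 CPM in the EB, FA and serum-free libraries from 2iL. The same sum was 1.77, 4.37 and 5.54 CPM in those from SL. All 3 libraries from 2iL thus lay far above all 3 from SL, by 54.9, 67.7 and 49.4 times in the EB, FA and serum-free courses, and the SL values rest on 36, 67 and 91 reads. Gene by gene, the fitted log2 fold change was 5.91 for Xlr3a (standard error 0.13, adjusted p = 7.7e-05), 5.72 for Xlr3b (standard error 0.17, adjusted p = 0.000186) and 5.83 for Xlr3c (standard error 0.25, adjusted p = 0.0026). Xlr3a and Xlr3b were past the threshold in 8 of the 9 alternative settings, more than any other of the 50 genes.

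The Xlr4 and Xlr5 families lie among and beside the Xlr3 copies. The Xlr4 sum was 16.7, 38.7 and 35.3 CPM from 2iL and 0.197, 0.521 and 1.401 CPM from SL, in the order EB, FA and serum-free. The Xlr5 sum was 3.86, 20.3 and 15.5 CPM from 2iL, and from SL it was 0.717 in FA and 0.487 in serum-free, with no read in the EB library. Both families were therefore high in every library from 2iL and close to the detection limit in those from SL, which held between 0 and 23 reads of a family. In the EB course the Xlr5 sum from 2iL was at least 26.2-fold higher than the level that 3 counts in the SL library would give. Xlr4b (5.32), Xlr4c (5.15), Xlr5a (5.02), Xlr5b (5.04) and Xlr5c (5.16) were past the threshold by their fitted log2 fold changes. These 5 fold changes depend on few SL reads, and the annotated span of Xlr5a runs over that of Xlr5c on the same strand. Xlr4a was at 8.499, 13.01 and 12.2 CPM from 2iL and 0, 0.130 and 0.487 CPM from SL, with an adjusted p of 0.0636. In all families the EB library was the lowest of its origin.

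The region of chromosome X from Pnma5 to Xlr5c (GRCm38, chrX:73033981-73292976, 259 kb) holds 16 counted genes, of which 12 were tested. Of these 12, 9 were past the threshold and 11 were at least 1.5-fold higher from 2iL in each course, against 0.882% of all genes tested. Pnma5, a gene of the paraneoplastic antigen family at the edge of the region, was at 26.3, 62.8 and 54.6 CPM from 2iL and 7.92, 14.8 and 16.9 CPM from SL. Its log2 fold change was 1.84 (standard error 0.12, adjusted p = 0.00825). F8a, which encodes a protein of endosome transport and lies among the Xlr copies, had a log2 fold change near 0 (0.09, standard error 0.22, adjusted p = 0.87). The region was thus not uniform, and Pnma3 had a log2 fold change of 1.94 with an adjusted p of 0.192.

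**Figure D2:**
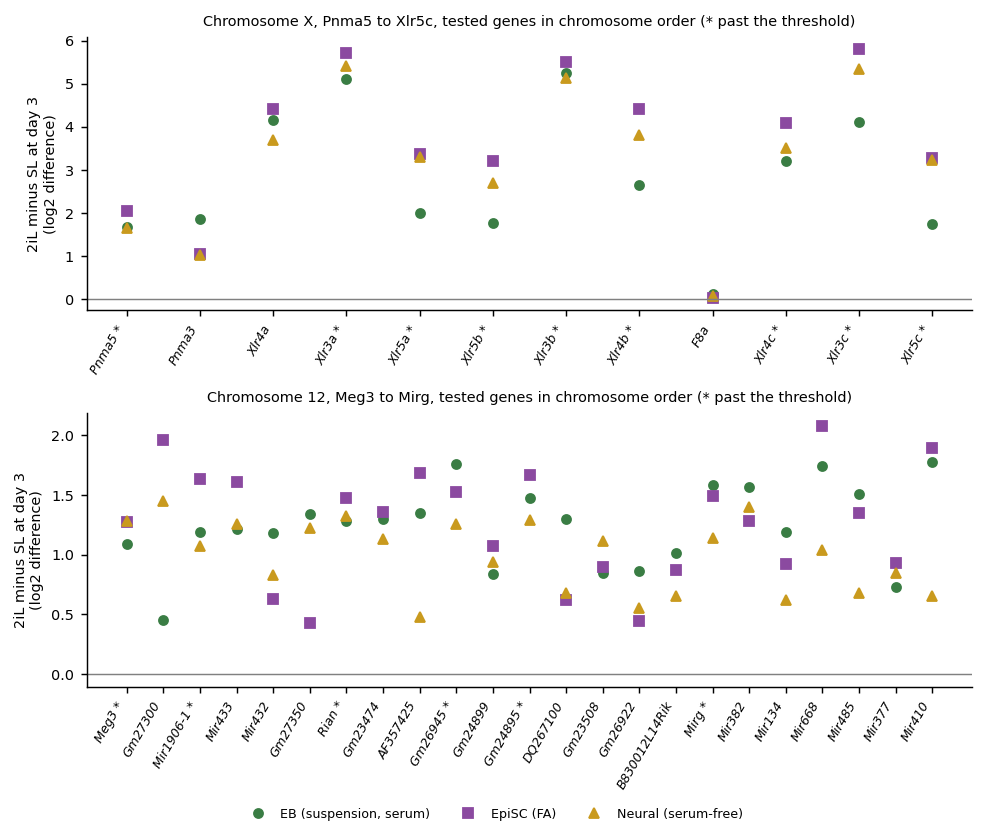
Log2 difference, 2iL minus SL, in each of the 3 courses for the tested genes of 2 regions, in chromosome order and on a log2(CPM + 0.5) scale. On chromosome X (upper panel, 12 genes) the points of every gene but F8a lie well above 0. On chromosome 12 (lower panel, 23 genes) every point that is drawn lies above 0 in every course, with the fitted values between 0.96 and 2.48.

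Across chromosome X, 15 of 543 genes tested differed (2.76%), 12 higher and 3 lower from 2iL. Without the Xlr3, Xlr4 and Xlr5 genes it was 7 of 534 (1.31%), 4 higher and 3 lower, and on the autosomes it was 33 of 13782 (0.239%). The 4 higher genes were Nxf3, Kctd12b, Pnma5 and C77370. Nxf3 belongs to the nuclear RNA export factor family and was at 7.73, 11.4 and 10.0 CPM from 2iL and 0.639, 1.24 and 2.01 CPM from SL (log2 fold change 2.99, standard error 0.30, adjusted p = 0.0267). C77370 is the files' name for Nexmif, a gene linked to neurite outgrowth, and was at 101, 56.1 and 30.3 CPM from 2iL and 27.9, 14.01 and 12.5 CPM from SL (log2 fold change 1.72, standard error 0.16, adjusted p = 0.0238). For both genes the groups did not overlap. Kctd12b was at 45.0, 5.94 and 3.97 CPM from 2iL and 8.51, 0.782 and 1.28 CPM from SL, so that the EB library from SL exceeded the adherent libraries from 2iL. The pairing by course carries this call (log2 fold change 2.31, standard error 0.25, adjusted p = 0.0338).

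The 3 lower X-linked genes were Usp26, Capn6 and Nrk. Usp26, a deubiquitinase gene known from the testis, was at 1.77, 1.18 and 0.378 CPM from 2iL and 11.7, 17.9 and 9.50 CPM from SL (log2 fold change -3.59, standard error 0.38, adjusted p = 0.0376). Capn6 and Nrk are known for expression in the placenta. Capn6, a calpain without protease activity, was at 0.715, 1.18 and 1.82 CPM from 2iL and 7.03, 10.5 and 8.59 CPM from SL (log2 fold change -2.89, standard error 0.29, adjusted p = 0.0267). Both of these genes were lower in every library from 2iL than in any from SL. Nrk, a kinase gene, was at 23.8, 3.24 and 6.99 CPM from 2iL and 80.0, 15.0 and 25.5 CPM from SL, and its groups overlapped because the EB libraries of both origins were high (log2 fold change -1.92, standard error 0.14, adjusted p = 0.00943).

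The Y chromosome had 8 genes tested, of which 2 differed (25.0%) and 7 had a positive log2 fold change. Zfy1, a zinc finger transcription factor gene, was at 8.56, 9.52 and 8.88 CPM from 2iL and 1.38, 1.11 and 1.096 CPM from SL (log2 fold change 2.90, standard error 0.23, adjusted p = 0.0111). Uba1y, the Y-linked copy of a ubiquitin-activating enzyme gene, was at 20.4, 19.3 and 24.1 CPM from 2iL and 6.74, 5.08 and 6.64 CPM from SL (log2 fold change 1.79, standard error 0.15, adjusted p = 0.0121). In both genes each origin spanned a narrow range over the courses and the groups stood apart. Zfy2, the neighbouring copy of Zfy1, had a log2 fold change of 2.73 with an adjusted p of 0.0522. Ddx3y, a widely expressed Y-linked helicase gene, was at 75.03, 109 and 77.2 CPM from 2iL and 58.6, 73.8 and 66.6 CPM from SL, which is a much smaller gap.

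On chromosome 12, the imprinted region from Meg3 to Mirg (GRCm38, chr12:109541001-109749460, 208 kb) had higher values from 2iL along its whole length. This region is transcribed from the maternal copy into long non-coding RNAs that host many small nucleolar RNAs and miRNAs. Of 99 genes counted there, 33 had a read and 23 were tested, and all 23 had a positive log2 fold change, against 49.3% of all genes tested. The median was 1.42, 19 of the 23 were at least 1.5-fold higher in each course, and 6 were past the threshold. The entries overlap on the same strand, so they are not independent measurements.

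Rian, the long RNA that hosts small nucleolar RNAs, was at 1124, 1159 and 1339 CPM from 2iL and 462, 417 and 533 CPM from SL (log2 fold change 1.36, standard error 0.08, adjusted p = 0.0064). Meg3 was at 241, 231 and 255 CPM from 2iL and 113, 95.1 and 104 CPM from SL (log2 fold change 1.22, standard error 0.09, adjusted p = 0.0111). Mirg, the host of a miRNA cluster, was at 159, 122 and 141 CPM from 2iL and 52.7, 43.1 and 63.9 CPM from SL (log2 fold change 1.42, standard error 0.11, adjusted p = 0.0111). In each of these genes the libraries of an origin lay close together and the origins did not overlap. The other 3 entries past the threshold were Gm26945 (1.62) and the small nucleolar RNA gene Gm24895 (1.49), which lie within the span of Rian, and Mir1906-1 (1.36), which lies within that of Meg3. Dlk1, the paternally expressed neighbour of the region, did not pass (log2 fold change 0.57, standard error 0.29, adjusted p = 0.409).

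The mature miRNA of the Mir1906-1 entry is shown because it is the only miRNA gene past the threshold. Its RefSeq sequence on GRCm38.p6 lies at chr12:109544588-109544609 on the positive strand, with the seed (bases 2 to 8) in capitals.
mmu-miR-1906: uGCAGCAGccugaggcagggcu
The same mature sequence is listed for Mir1906-2 on chromosome X. The libraries were made from fragments of long RNA, so counts on this entry are reads that cross an 80-base interval within Meg3, and the mature miRNA was not measured. Mir1906-1 was at 17.1, 23.0 and 16.1 CPM from 2iL and 7.18, 7.04 and 7.37 CPM from SL (standard error of the fold change 0.17, adjusted p = 0.0471). Its values were higher from 2iL in every course, as were those of Meg3.

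The imprinted list had 25 genes tested, and 5 were past the threshold and higher from 2iL, against 0.222% of all genes tested. They were Plagl1, Nnat, Mirg, Rian and Meg3. Mirg, Rian and Meg3 lie in the same region described above, so the 5 genes are not 5 separate loci. The list's median log2 fold change was 0.66, and 7 of its genes were at least 1.5-fold higher in each course and 3 at least 1.5-fold lower, against 0.882% and 1.27% of all genes tested. Plagl1, a zinc finger gene on chromosome 10 that is usually expressed from the paternal copy, was at 12.7, 39.4 and 55.5 CPM from 2iL and 1.52, 1.63 and 4.81 CPM from SL (log2 fold change 3.71, standard error 0.31, adjusted p = 0.0268). Nnat, a paternally expressed gene for a small membrane protein of neural tissue, was at 22.7, 42.1 and 119 CPM from 2iL and 6.25, 8.93 and 27.9 CPM from SL (log2 fold change 2.07, standard error 0.11, adjusted p = 0.00486). Plagl1 was apart between the origins. For Nnat the serum-free library from SL exceeded the EB library from 2iL, while within each course the gap was between 1.78 and 2.18 on the log2 scale.

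Grouped by the parental copy from which they are usually expressed, 13 of the 15 listed paternally expressed genes tested had a positive log2 fold change. Their median was 0.69, and imprinted genes outside the list were not counted. Of the 9 maternally expressed genes, 4 were positive and 5 negative, with a median of -0.04. The split does not cover all 25 listed genes tested, of which 17 were positive and 8 negative. Among the paternal genes, Mest was at 284, 2062 and 2795 CPM from 2iL and 154, 399 and 884 CPM from SL (log2 fold change 1.64, adjusted p = 0.2), and Usp29 had a log2 fold change of 1.57 (adjusted p = 0.0964). Igf2, a paternally expressed growth factor gene, went the other way in EBs, with 5.01 CPM from 2iL and 35.2 from SL, and was at 115 and 108 CPM in the serum-free course. Among the maternal genes outside the Meg3 region, Phlda2 (-1.34, adjusted p = 0.0505), Cdkn1c (-1.17, adjusted p = 0.0906) and Grb10 (-1.42, adjusted p = 0.215) had negative values. H19 was at 68.1, 218 and 623 CPM from 2iL and 73.1, 8.08 and 40.2 CPM from SL, so its origins were alike in EBs and far apart in the adherent courses (adjusted p = 0.529). The counts do not tell the parental copies apart, and the split by copy was made after the values were seen. DESeq2's Wald test called 12 of the 25 genes, against 3.35% of all genes tested. Leaving out the EB, FA and serum-free course in turn, edgeR called 15, 2 and 0, against 4.97%, 0.143% and 0.0137% of all genes.

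**Figure D3:**
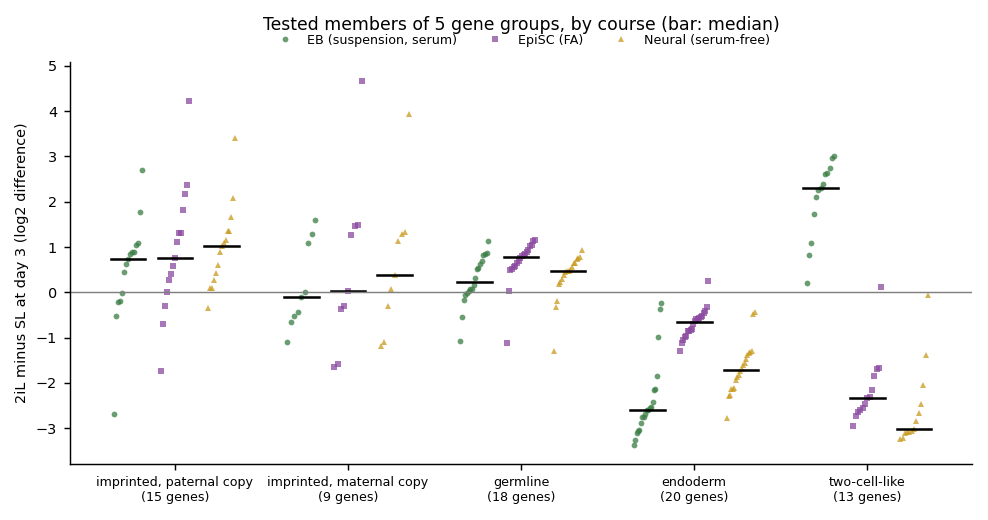
Log2 difference, 2iL minus SL, of the tested members of 5 gene groups in each of the 3 courses, on a log2(CPM + 0.5) scale, with a bar at the median of each course. The endoderm genes lie below 0 in nearly every case, most of all in EBs with a median of -2.60, and the 2-cell-like genes lie above 0 in EBs and below 0 in both adherent courses, except for Eif1a, which is at 0.12 in FA.

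Genes of the germline are silenced by DNA methylation in the embryo, and many of their promoters hold the E-box motif. The promoters of Sycp3 and Taf7l are shown because they had opposite signs while both hold this motif, CACGTG, which reads the same on both strands and is in capitals. The windows are the 250 bases before the RefSeq start on GRCm38.p6, at chr10:88459337-88459586 on the positive strand for Sycp3 and at chrX:134476491-134476740 on the negative strand for Taf7l.
Sycp3: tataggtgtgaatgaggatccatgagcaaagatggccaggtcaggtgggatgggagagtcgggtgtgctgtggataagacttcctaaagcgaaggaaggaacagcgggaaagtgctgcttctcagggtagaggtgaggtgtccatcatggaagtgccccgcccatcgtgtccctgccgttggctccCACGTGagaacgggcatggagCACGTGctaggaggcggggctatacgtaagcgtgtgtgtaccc
Taf7l: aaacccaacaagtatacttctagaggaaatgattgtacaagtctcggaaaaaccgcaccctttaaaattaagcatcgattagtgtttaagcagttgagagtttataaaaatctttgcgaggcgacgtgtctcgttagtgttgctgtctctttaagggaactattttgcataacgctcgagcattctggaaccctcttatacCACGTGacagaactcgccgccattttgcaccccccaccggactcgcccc
The motif occurred in the promoters of 10 of the 19 genes of the germline list with an entry (52.6%), against 6.86% of the 27025 genes. Among the genes past the threshold it occurred in 1 of the 23 higher genes with an entry and in 3 of the 16 lower ones. A match is a description of the letters only.

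Of 18 germline genes tested, Sycp3 was the only one past the threshold, and it was lower from 2iL. Sycp3, a component of the synaptonemal complex, was at 16.6, 7.75 and 5.16 CPM from 2iL and 35.6, 17.3 and 13.3 CPM from SL (log2 fold change -1.20, standard error 0.14, adjusted p = 0.0349). The EB library was the highest of each origin, so the groups overlapped. The other 17 genes had positive log2 fold changes, 11 of them with an unadjusted p under 0.05, against 7.78% of all genes tested, and the median of the 18 was 0.56. Taf7l, an X-linked paralog of a general transcription factor subunit, was at 3.26, 16.2 and 10.3 CPM from 2iL and 1.57, 7.10 and 5.78 CPM from SL (log2 fold change 1.03, adjusted p = 0.0929). Tuba3a, a testis tubulin gene, was at 19.1, 84.8 and 62.6 CPM from 2iL and 12.9, 37.8 and 32.6 CPM from SL (log2 fold change 0.90, adjusted p = 0.0761). For these genes the origins differed in the same direction in every course, by less than the EB course differed from the adherent ones. Dazl, a germ cell RNA-binding protein gene, had 0.67 with an adjusted p of 0.192. DESeq2's Wald test called 4 of the 18 genes, against 3.35% of all genes tested, and edgeR called 8 without the EB course, against 4.97%. The edgeR count was 0, so that Sycp3 was lost, without the FA course (adjusted p of Sycp3 = 0.176), without the serum-free course (0.149), with all 41 libraries (0.325), without robust moderation (0.065) and without the block (0.997). The 11 enzymes and cofactors of DNA methylation tested included none past the threshold in edgeR and none called by DESeq2's Wald test. At an unadjusted p under 0.05 there was 1, against 15.4% of all genes tested. Dnmt1 was at 373, 346 and 395 CPM from 2iL and 341, 373 and 409 CPM from SL, and Dnmt3b at 2981, 483 and 435 CPM from 2iL and 2770, 1082 and 650 CPM from SL.

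Genes of endoderm and extraembryonic endoderm had lower values from 2iL without a call in edgeR. All 20 genes tested had a negative log2 fold change, against 50.7% of all genes, with a median of -1.81, and 12 were at least 1.5-fold lower in each course, against 1.27% of all genes. None was past the threshold in edgeR. At an unadjusted p under 0.05, 17 were lower, against 7.65% of all genes, and DESeq2's Wald test called 16, against 3.35%. Without the EB, FA and serum-free course in turn edgeR called 7, 5 and 0, against 4.97%, 0.143% and 0.0137% of all genes. Cubn, the endocytic receptor cubilin of the visceral endoderm, was at 136, 278 and 285 CPM from 2iL and 926, 430 and 1391 CPM from SL (log2 fold change -1.91, standard error 0.57, adjusted p = 0.314). Gata6, a transcription factor gene of primitive endoderm, was at 2.60, 6.48 and 11.1 CPM from 2iL and 26.0, 12.1 and 38.1 CPM from SL (log2 fold change -1.99, standard error 0.55, adjusted p = 0.254). In both genes every library from SL lay above every library from 2iL. The median gap was -2.60 in EBs, -1.72 in the serum-free course and -0.66 in FA, and the spread between courses is part of the standard error. Summed over the 20 genes tested and 1 more listed gene, the group was at 1600 to 2477 CPM from 2iL and 3038 to 7423 CPM from SL. In bulk RNA, fewer cells of a type and less RNA per cell cannot be told apart.

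Of the 8 trophoblast genes tested, Krt8 alone was past the threshold, against 0.347% of all genes tested. Krt8, a keratin of simple epithelia on the trophoblast list, was at 38.5, 30.4 and 41.2 CPM from 2iL and 128, 104 and 89.0 CPM from SL (log2 fold change -1.54, standard error 0.15, adjusted p = 0.028). Its partner Krt18 had -1.01 (adjusted p = 0.079) and Krt7 had -1.18 (adjusted p = 0.136). Of the 8 genes, 6 had negative and 2 positive log2 fold changes, between -1.542 and 0.801, with a median of -0.951. Outside the lists, Sfmbt2, a Polycomb-related gene with a role in the trophoblast, was at 7.33, 16.5 and 23.3 CPM from 2iL and 38.6, 56.8 and 80.5 CPM from SL (log2 fold change -1.99, standard error 0.15, adjusted p = 0.0111). Tinagl1, a matricellular protein gene, was at 1.34, 1.13 and 2.33 CPM from 2iL and 8.46, 5.34 and 12.9 CPM from SL (log2 fold change -2.46, standard error 0.21, adjusted p = 0.0159). In Krt8, Sfmbt2 and Tinagl1 the origins did not overlap. The summed endoderm markers were also lower from 2iL in the same libraries, and their part in these differences was not tested.

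Among the lower genes, the largest fold change was that of Gm14149, a lincRNA on chromosome 2 (GRCm38, chr2:151205195-151231614), at 0.229, 0.147 and 0.818 CPM from 2iL and 7.33, 2.80 and 6.88 CPM from SL (log2 fold change -4.03, standard error 0.44, adjusted p = 0.0338). It was near the detection limit in the libraries from 2iL, so that the size of the fold change rests on few reads. Glipr1, which encodes a secreted cysteine-rich protein, was at 1.09, 0.196 and 0.692 CPM from 2iL and 6.54, 1.95 and 5.36 CPM from SL (log2 fold change -2.85, standard error 0.29, adjusted p = 0.0279). Fv1 and Miip are neighbours on opposite strands of chromosome 4, at chr4:147868979-147870358 and chr4:147860778-147868816. Fv1, a gene derived from a retroviral capsid sequence that restricts retroviruses, was at 0.630, 0.589 and 0.567 CPM from 2iL and 3.29, 2.93 and 2.92 CPM from SL (log2 fold change -2.35, standard error 0.29, adjusted p = 0.0471). Miip was at 7.61, 2.65 and 2.90 CPM from 2iL and 20.1, 10.8 and 8.10 CPM from SL (log2 fold change -1.63, standard error 0.19, adjusted p = 0.0417). Both neighbours were thus lower from 2iL in every course. Ifi30, a lysosomal thiol reductase gene, had a log2 fold change of -1.59, and Myof, a gene of membrane repair, had -1.24. The remaining 5 lower genes, Aldh1l1, Mreg, Mroh1, Ass1 and Mt1, had log2 fold changes between -1.18 and -0.83.

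Genes of the 2-cell-like state, a rare state of ESC cultures marked by the Zscan4 family, differed between origins in opposite directions in EBs and in adherent cells. Zscan4c was at 144, 48.6 and 41.8 CPM from 2iL and 18.1, 306 and 350 CPM from SL. Gm4340 was at 309, 94.1 and 84.5 CPM from 2iL and 49.9, 552 and 726 CPM from SL. At day 3 the origins thus crossed over between the EB and the adherent courses. In EBs the sum of the listed genes, on the scale of all libraries, was 359 CPM from 2iL and 538 CPM from SL at day 2. It was 862 CPM from 2iL and 385 CPM from SL at day 2.5, so the reversed order in EBs was not there at day 2. Over the 13 genes tested, the median difference was 2.30 in EBs, -2.33 in FA and -3.03 in the serum-free course on the log2 scale. None of the 13 was past the threshold or had an unadjusted p under 0.05 in the comparison over all courses, and DESeq2's Wald test called none. Without the EB course edgeR called all 13, against 4.97% of all genes tested. With 1 library per medium and course, the difference between courses was not tested. The Zscan4 genes are near-identical copies, and their reads may have been split between them.

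Among lineage regulators, few were past the threshold. Sox1, a transcription factor gene of early neurectoderm, was at 1.66, 85.6 and 245 CPM from 2iL and 1.18, 43.4 and 131 CPM from SL (log2 fold change 0.87, standard error 0.11, adjusted p = 0.0461). Lefty1, a secreted Nodal antagonist and Nodal target gene, was at 64.6, 864 and 52.4 CPM from 2iL and 29.4, 320 and 25.5 CPM from SL (log2 fold change 1.20, standard error 0.11, adjusted p = 0.0164). Both were higher from 2iL within each course, while the course set the level, with Lefty1 highest in FA and Sox1 highest in the serum-free course. Lefty2 had a log2 fold change of 1.65 (adjusted p = 0.135) and Nodal itself 0.24 (adjusted p = 0.686). Of 16 neural progenitor genes tested, Sox1 alone passed, and Pax6 had 1.14 (adjusted p = 0.109) and Gbx2 0.70 (adjusted p = 0.0825). The list as a whole was mixed, with 9 positive and 7 negative log2 fold changes between -1.765 and 1.563 and a median of 0.115. Meox1, a homeobox gene of somitic mesoderm, was at 0.143, 10.8 and 30.1 CPM from 2iL and 0, 0.326 and 3.17 CPM from SL (log2 fold change 3.86, standard error 0.42, adjusted p = 0.0376). It was absent or at the detection limit in EBs of both origins. Of 13 mesoderm genes tested, no other was past the threshold, and Tbx6 was at or below 0.885 CPM in all 6 libraries.

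Among the genes higher from 2iL on none of the lists, Zfp951, a zinc finger gene, was at 12.96, 10.8 and 11.7 CPM from 2iL and 0.984, 1.499 and 1.58 CPM from SL (log2 fold change 3.14, standard error 0.25, adjusted p = 0.0118). Platr15, a lincRNA named for its association with pluripotency, was at 12.2, 11.9 and 13.6 CPM from 2iL and 3.79, 2.22 and 4.75 CPM from SL (log2 fold change 1.85, standard error 0.23, adjusted p = 0.0461). In both genes the libraries of the origins did not overlap. Gpat2, an acyltransferase gene known from the testis, was at 34.3, 65.2 and 55.5 CPM from 2iL and 10.8, 23.1 and 23.1 CPM from SL (log2 fold change 1.47, standard error 0.11, adjusted p = 0.0111). Rpl39l, a ribosomal protein paralog also known from the testis, had a log2 fold change of 1.68 (adjusted p = 0.028), and Aass, which encodes an enzyme of lysine degradation, had 2.05 (adjusted p = 0.028). Col18a1, a basement membrane collagen gene, was at 550, 822 and 945 CPM from 2iL and 301, 443 and 514 CPM from SL (log2 fold change 0.88, standard error 0.08, adjusted p = 0.0159). Lrig1, a gene for a negative regulator of growth factor receptors, had 0.77 (adjusted p = 0.0349).

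The pluripotency network itself gave no call. None of the 18 naive factors, the 12 general pluripotency factors or the 19 formative and primed epiblast genes tested was past the threshold in edgeR, with medians of 0.08, 0.02 and -0.16, and DESeq2's Wald test called 1, 3 and 0 of them. At an unadjusted p under 0.05 there were 4, 3 and 3 genes, and without the EB course edgeR called 3, 6 and 6. Over all genes tested these shares were 15.4% and 4.97%, and 3.35% for DESeq2's Wald test. The naive factors went different ways by course, with median log2 differences of 0.495 in EBs, -0.022 in FA and -0.415 in the serum-free course. Of the 18, 14 were positive in EBs, 8 in FA and 2 in the serum-free course. The difference between courses was not tested. Nanog was at 128, 183 and 50.8 CPM from 2iL and 82.4, 152 and 52.0 CPM from SL (log2 fold change 0.29, adjusted p = 0.366). Pou5f1 (Oct4) was at 495, 171 and 70.4 CPM from 2iL and 463, 326 and 126 CPM from SL (log2 fold change -0.56, adjusted p = 0.348). The order of the courses was the same for both origins in Pou5f1. Within courses, Pou5f1 was similar between origins in EBs and lower from 2iL in both adherent courses. Sox2 had 0.54 (adjusted p = 0.081), Esrrb 0.60 (adjusted p = 0.244), Tfcp2l1 -0.32 (adjusted p = 0.304) and Klf2 0.19 (adjusted p = 0.738). Zfp42 (Rex1) had 0.12 (adjusted p = 0.802), and Dppa3 had 0.92 (adjusted p = 0.513) at no more than 1.46 CPM. Prdm14 did not pass the filter and was at or below 1.06 CPM. The formative genes Fgf5 (-0.15, adjusted p = 0.794) and Otx2 (-0.71, adjusted p = 0.399) did not pass either.

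Of the 8 genes of the X-inactivation centre tested, none was past the threshold. An unadjusted p under 0.05 was found for 1, against 15.4% of all genes tested, and DESeq2's Wald test called 1, against 3.35%. Xist, the RNA that silences the X chromosome in cis, was at 1.49, 1.03 and 3.90 CPM from 2iL and 2.02, 1.76 and 1.401 CPM from SL (log2 fold change 0.10, standard error 0.50, adjusted p = 0.94). Its antisense partner Tsix had 0.39 (adjusted p = 0.596), Ftx -0.17 (adjusted p = 0.76), Tsx 0.11 (adjusted p = 0.913) and Rlim 0.03 (adjusted p = 0.933). Jpx did not pass the filter and was at or below 0.792 CPM. Xist was thus low in all 6 libraries and the origins overlapped. The X-linked genes Huwe1 (-0.02, adjusted p = 0.932) and Nsdhl (0.14, adjusted p = 0.761) did not pass.

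The other lineage markers that the study names did not pass the threshold: Gata4 had a log2 fold change of -2.03 (adjusted p = 0.211), Sox17 -2.02 (adjusted p = 0.192), Snai1 -0.87 (adjusted p = 0.299), T -0.66 (adjusted p = 0.399), Tbx6 -0.05 (adjusted p = 0.967) and Nes 0.04 (adjusted p = 0.896). The 34 lists held 459 different genes that were tested. Of these, 10 were past the threshold, on 6 lists, against 0.347% of all genes tested. The other 40 of the 50 genes were on none of the lists. Among lists without a call, 14 of 15 Hox genes had positive log2 fold changes, against 49.3% of all genes, with a median of 0.70. Of these, 4 had an unadjusted p under 0.05, against 7.78% of all genes, and DESeq2's Wald test called 1, against 3.35%. The median was 1.31 in FA, 0.42 in the serum-free course and -0.09 in EBs, whose Hox levels summed to 2.00 and 4.03 CPM. Of 24 glycolysis and hypoxia genes, 23 had negative values, against 50.7% of all genes, with a median of -0.28. Of these, 9 had an unadjusted p under 0.05, against 7.65% of all genes, and DESeq2's Wald test called 6, against 3.35%. This group was lowest against SL in EBs, with a median of -0.67, against -0.16 in FA and -0.17 in the serum-free course.

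Days 2 and 7 share no library with day 3 and show how long these differences had been present and whether they lasted. In one fit of the 18 libraries of days 2, 3 and 7, with 15659 genes tested, 1297 genes differed between origins at day 2 (8.28%), 117 at day 3 (0.747%) and 5 at day 7 (0.0319%). At day 2, 551 were higher (3.52%) and 746 lower from 2iL (4.76%), at day 3 these were 62 (0.396%) and 55 (0.351%), and at day 7 they were 4 (0.0255%) and 1 (0.00639%). Without the EB, FA and serum-free course in turn, day 2 gave 1984, 116 and 30 genes, day 3 gave 574, 12 and 0, and day 7 gave 42, 0 and 0. All 50 genes of day 3 had the same sign at day 2, and 42 of them were past the threshold there. At day 7, 41 had the same sign and 4 were past the threshold, namely Xlr3b, Xlr3c, Plagl1 and Meg3. The number of genes past a threshold depends on the spread between courses on that day, so these counts alone are no measure of the size of the differences, and the difference between days was tested gene by gene.

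From day 3 to day 7, no gene changed its difference between origins at an adjusted p under 0.05 in edgeR. An unadjusted p under 0.05 was found for 789 of the 15659 genes tested, near the share that this threshold alone would give. DESeq2's Wald test called 48, and edgeR called 40 without the EB course. Of the 50 genes, 24 had an unadjusted p under 0.05 for this change, and all 24 had the smaller difference at day 7. These genes had been chosen on their day 3 values, which by itself favours a smaller difference on another day. Col18a1 went from 0.88 at day 3 to -0.18 at day 7 (change -1.05, standard error 0.17, adjusted p = 0.325), Meox1 from 3.90 to -0.63 (change -4.54, standard error 0.69, adjusted p = 0.325) and Tinagl1 from -2.47 to -0.94 (change 1.53, standard error 0.20, adjusted p = 0.128). None of these changes passed the adjustment.

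**Figure D4:**
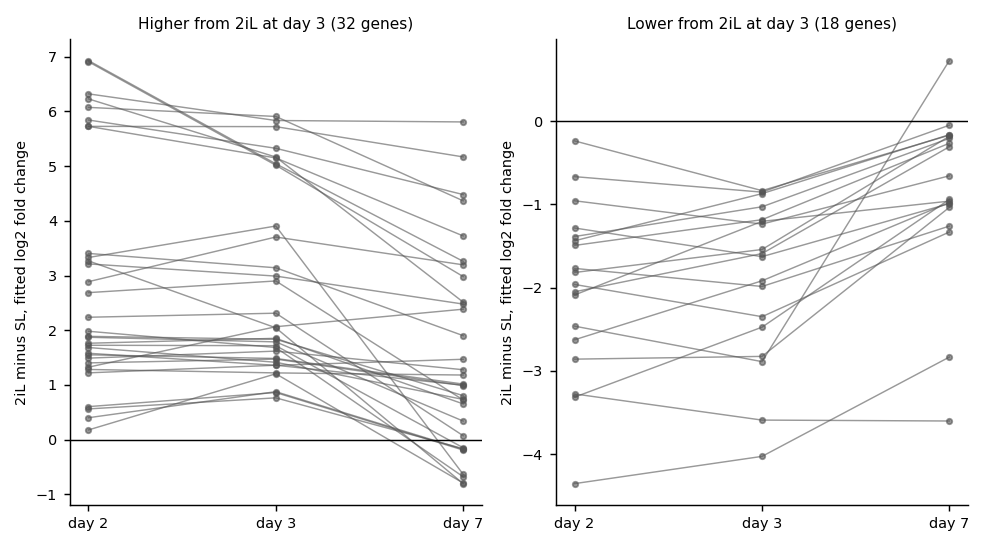
Fitted log2 fold change, 2iL minus SL, of the 50 genes at days 2, 3 and 7 in the fit of 18 libraries, with 1 line per gene. The 32 higher genes (left) are all above 0 at day 2 and the 18 lower genes (right) are all below 0, and by day 7 many lines lie near 0.

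The Xlr3 family was apart between the origins at day 0 and at day 7. The Xlr3 sum, on the scale of all libraries, was between 201 and 279 CPM in the 3 day 0 libraries in 2iL and 3.96 CPM in the single day 0 library in SL. At day 7 it was 31.3, 243 and 159 CPM in the EB, FA and serum-free libraries from 2iL and 1.86, 2.84 and 9.61 CPM in those from SL. From 2iL the EB course was the lowest at day 7, and the origins were apart in each course. The Xlr5 sum from 2iL was between 72.3 and 100.0 CPM at day 1.5 and at 0.398, 5.33 and 6.84 CPM in the EB, FA and serum-free libraries at day 7. From SL the Xlr5 sum at day 7 was 0.0929, 0 and 1.84 CPM, so that the EB library from 2iL lay below the serum-free library from SL.

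Plagl1 was at 274 to 403 CPM at day 0 in 2iL, 5.68 to 9.43 CPM at day 2, 12.7 to 53.9 CPM at day 3 and 24.2 to 180 CPM at day 7. From SL it was at 0.844 CPM at day 0 and between 5.30 and 14.8 CPM at day 7. Its level from 2iL was lowest at day 2 of these days, and at each of them the libraries from 2iL lay above those from SL. Nnat began at 0.121 to 0.665 CPM in 2iL and 0.686 CPM in SL, so it was no higher in 2iL, and the gap opened during differentiation, with 7.03 to 11.8 CPM against 3.19 to 4.47 CPM at day 2. Rian was likewise at 196 to 517 CPM at day 0 in 2iL and 247 CPM in SL, and at 763 to 940 CPM against 303 to 430 CPM at day 2. By these values, with a single SL library at day 0 and no test there, the gap in Plagl1 was present in the ESCs and those in Nnat and Rian were seen only later.

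Of the lower genes, Usp26 was at 0.310 to 1.57 CPM at day 0 in 2iL and 11.7 CPM in SL, and at day 7 it was at 0 to 0.199 CPM from 2iL and 1.06 to 1.86 CPM from SL. Sycp3 was at 2.02 to 2.79 CPM at day 0 in 2iL and 35.7 CPM in SL. Capn6 was at 2.12 to 2.73 CPM at day 0 in 2iL and 2.75 CPM in SL, so that it did not separate the origins there. It reached 258 CPM in the EB library from 2iL at day 7, above the 42.1 CPM of its SL partner, while the adherent courses were at 21.3 and 53.6 CPM from 2iL and 26.0 and 54.0 CPM from SL. The lower genes thus included some that were low from the start and some that came on later from 2iL than from SL.

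**Figure D5:**
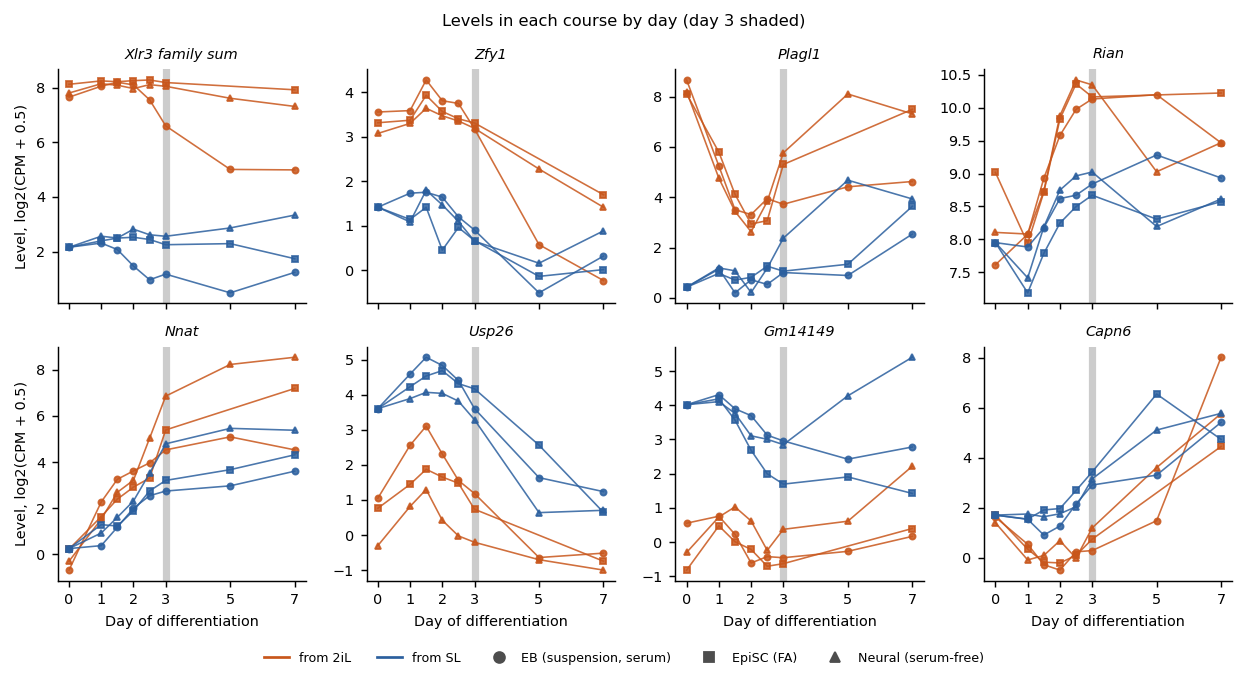
Level of 7 genes and of the Xlr3 sum by day of differentiation in each course, on a log2(CPM + 0.5) axis, with day 3 shaded. Each point is 1 library, the single SL library of day 0 starts all 3 SL lines, and the FA course from 2iL has no point at day 5. The Xlr3 lines of the origins stay apart throughout, while those of Capn6 start together and those of Nnat start low in both origins.

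Each day 3 library was also compared with the libraries from day 1 to day 7 of the other origin in the same course, of which 2iL has none at day 5 in FA. This is a description across 14396 genes, which are not independent replicates. The EB library from 2iL at day 3 had its highest Pearson correlation with the SL EB library of day 2 (0.9793) and a lower one with that of day 3 (0.9728). The FA and serum-free libraries from 2iL had theirs with day 3 from SL (0.9724 and 0.9726). The 3 libraries from SL at day 3 each correlated most with day 3 from 2iL. All of these values are high because most genes keep their level, and the differences between neighbouring days are small.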

How the data were processed

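Strand-specific RNA-seq of the 6 day 3 libraries, with those of days 2 and 7 for comparison, was analysed. The values deposited by the authors are raw, unnormalized counts. Reads had been trimmed (TrimGalore) and aligned to GRCm38 (mm10) by TopHat2 using the gene models of Ensembl, and featureCounts had assigned them to genes by strand. The handling of reads that map to several copies is not given in the sources used here. TMM factors, CPM and fits came from edgeR 4.0.16, run in R 4.3.3, and the alternative test from DESeq2 1.42.0. The main test was edgeR's quasi-likelihood test on the counts, with filterByExpr, the course as a block and Benjamini-Hochberg adjustment at 0.05. In the fit of days 2, 3 and 7 each day and course pair was a block. Libraries were paired by the course in their labels. Deviations from the mean of an origin correlated by 0.606, 0.324 and 0.626 between the EB, FA and serum-free libraries of both origins and by at most 0.101 otherwise. Because the courses are different culture conditions, these correlations cannot tell whether the starting cultures were paired. Differences per course carry a pseudocount of 0.5 CPM. Total counts were 15774405 to 33951812 per library, and intervals and floors cover counting error only. On simulated counts with 200 changed genes, the day 3 test recovered 93% of 4-fold and 57% of 2-fold changes, and 0.66% of its calls were false among 14185 genes. These counts were drawn with a spread set by the mean level of a gene alone. Spread particular to single genes was not simulated, so these shares need not hold for the data.

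The libraries compared, the gene lists and the tests were chosen with earlier results of these data known. Named genes are those the study names, the 12 largest rises and 12 largest falls past the threshold with the same sign in all 3 courses, up to 4 members per list past the threshold, and interaction genes. Other genes named, among them Meg3, the Y-linked genes, Kctd12b, Pnma5, Platr15, Gpat2, Rpl39l, Aass, Col18a1, Lrig1 and the lower genes below a log2 change of 1.2 in size, and both chromosome regions and all day series, were chosen after their values were seen. Alternatives were DESeq2's Wald test, DESeq2 size factors in edgeR, no low-count filter, no replicate block, all 41 libraries from day 1 on, and each course left out. A fit without robust moderation was added after seeing the data. Sequences are from RefSeq tables of GRCm38.p6.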

Additional observations from a re-analysis of the deposited data

Results flagged for a closer look

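For 1 gene the difference between origins changed from day 2 to day 3 by a test of the change itself. Eif4g3, which encodes a translation initiation factor, was at 8.16, 11.1 and 16.3 CPM in the EB, FA and serum-free libraries from 2iL at day 2 and at 25.3, 37.0 and 47.2 CPM in those from SL. At day 3 it was at 62.9, 65.0 and 70.5 CPM from 2iL and 57.1, 73.5 and 78.4 CPM from SL. The origins were thus apart at day 2 and overlapped at day 3. In edgeR's quasi-likelihood fit the log2 fold change, 2iL minus SL, went from -1.63 (standard error 0.11) to -0.07 (standard error 0.10), and the change was 1.56 (standard error 0.15, edgeR adjusted p = 0.0196), the only one of 15659 genes past the threshold (0.00639%). No gene was past the threshold for this change with all 41 libraries, without the FA course, without the serum-free course or without the block, so the Eif4g3 call was lost in these 4 settings. It was at 0.04 at day 7. In 2iL at day 0 the gene was at 6.93 to 11.3 CPM, and at 46.1 CPM in the single SL library.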

How the results depend on the processing

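The limit of this comparison is its size, with 1 library per origin and course and 2 residual degrees of freedom. Against 50 genes at day 3, DESeq2's Wald test gave 482 (46.9% of them higher from 2iL, against 64.0%), no filter on low counts 230 (51.7% higher), all 41 libraries 94 (77.7% higher), DESeq2 size factors in edgeR 53, the fit without robust moderation 34, added after seeing the data, and leaving out a course between 2 and 716. All 50 genes were also called by DESeq2, with DESeq2 size factors, with no filter and without the EB course, while 8 remained without the FA course, 2 without the serum-free course, 26 with all 41 libraries and 34 without robust moderation. Without the replicate block by course 0 genes were called, and 669 had an unadjusted p under 0.05. For the change from day 2 to day 3, against 1 gene, DESeq2 gave 47, no filter 2, all 41 libraries 0, no replicate block 0 and leaving out a course between 0 and 117. For the change from day 3 to day 7, against 0 genes, DESeq2 gave 48, leaving out a course between 0 and 40, and no replicate block 0. List members past the threshold numbered 10 in the main test. DESeq2 gave 69, no filter 31, all 41 libraries 5, no replicate block 0 and leaving out a course between 0 and 88. Over all genes tested the shares were 0.347% in the main test, 3.35% with DESeq2, 1.08% with no filter and 0.571% with all 41 libraries. They were 0% with no replicate block and between 0.0137% and 4.97% with a course left out. Where a fit leaves out a course or takes in more libraries, fewer or more samples give its spread. Why the other settings differ was not tested. Of the 55 named genes tested, none past the threshold changed sign in any of the 9 settings. Genes with levels near 3 counts, such as the Xlr5 copies and Gm14149, have large counting errors.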
